A study of Mus musculus with 6 samples.

Results

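Immediate-early and heat shock genes are 10 members here, chosen by symbol: Fos, Fosb, Jun, Junb, Egr1 and Atf3, which encode transcription factors of the immediate-early response, and Hspa1a, Hspa1b, Dnajb1 and Hsph1, which encode chaperones and co-chaperones of the heat shock response. They are 10 of the 32285 genes counted, and each was found under 1 identifier. Single-cell RNA sequencing was done on the small intestinal epithelium in 3 libraries from control littermates and 3 from IE-HuR-/- mice, in which the gene for the RNA-binding protein HuR (Elavl1) is flanked by loxP sites and deleted by Cre under the villin promoter. That promoter acts in epithelial cells and not in lymphocytes. In the study's methods the control littermates carried the loxP-flanked gene without Cre. Expression of Cre was not examined here. The mice were of C57BL/6 background, young adult and matched for age and sex in the study's methods, with no further treatment. The labels give normal feeding, whereas the methods describe food withdrawal with free access to water before experiments. In the methods, cells were freed in EDTA at 37 °C with shaking and then in TrypLE, and villus-rich and crypt-rich cells were combined. The methods describe this 1 protocol for both groups, and no undissociated tissue stands beside the 6 libraries. They do not give the day or order of the preparations, and whether handling differed between the labels was not tested.

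Immediate-early genes are transcribed within minutes of a stimulus without new protein synthesis. Fos and Jun proteins pair to form AP-1, which binds DNA, and Egr1 is a zinc finger factor induced through serum response factor and ERK signalling. Heat shock genes are switched on by HSF1 when unfolded protein accumulates. Hspa1a and Hspa1b encode the inducible Hsp70, Dnajb1 its Hsp40 partner, and Hsph1 the nucleotide exchange factor Hsp110. Both groups are known to be induced while tissue is dissociated by warm enzymatic digestion, and both are also used by cells in intact tissue.

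Barcodes were assigned to cell classes by marker genes, and the counts of unique molecular identifiers (UMIs) were summed per library and class. A level is given as CPM, the counts of a gene per 1000000 UMIs of that sum, and levels are compared between classes within a gene, not between genes. In all, 60706 barcodes held 500 UMIs or more each. The libraries held 59518012 to 91818560 UMIs, and the median barcode held 1275 to 2877. Gates took up 14626 enterocyte, 5001 T or NK, 1210 goblet and 153 progenitor barcodes, and 37584 barcodes passed no gate. Median mitochondrial shares were 3.85% to 4.65% per library. Libraries shared 22 to 44 barcodes, at most 0.443% of the smaller one. Elavl1, the targeted gene, stood at 28.1, 30.3 and 27.4 CPM in control enterocytes and at 28.6, 28 and 29.3 CPM in those of libraries labelled IE-HuR-/-. The libraries overlapped in CPM, although edgeR called Elavl1 higher in labelled enterocytes (log2 0.21 ± 0.05, adjusted p = 0.00115), a call lost without the TMM composition factors described below. The RNA thus showed no loss in these libraries. The reads were counted over the whole gene and which part was deleted was not examined, so this value does not test the labels.

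The promoters are shown first because they bear on which members share a known heat shock sequence. RefSeq windows from 250 bases before to 50 after the start (build GRCm38.p6) were at hand for 9 of the 10 members, Egr1 being the exception. The Hspa1a and Hspa1b windows were identical at 296 of 300 positions. In the 150 bases before the start they were identical at 149 of 150 positions. These are printed for Hspa1a (chr17:34972157-34972306, minus strand) and Hspa1b (chr17:34959239-34959388, minus strand), with a pair of adjoining heat shock units (GAANNTTC) in capitals:
Hspa1a: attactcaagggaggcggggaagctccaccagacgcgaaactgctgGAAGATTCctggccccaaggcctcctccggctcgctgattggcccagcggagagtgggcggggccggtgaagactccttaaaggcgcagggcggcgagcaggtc
Hspa1b: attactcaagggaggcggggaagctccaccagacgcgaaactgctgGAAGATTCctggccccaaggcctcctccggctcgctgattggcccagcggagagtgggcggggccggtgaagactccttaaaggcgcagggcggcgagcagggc

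A heat shock element of 3 inverted GAA units with gaps of 2 bases, on either strand, was found in 1 member window, that of Hsph1, and in 0.603% of all 32851 windows. It lies just after the start, at chr5:149636288-149636300, and 30 bases around it are printed with the element in capitals:
Hsph1: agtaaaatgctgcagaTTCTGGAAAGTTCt
A motif of 2 adjoining units (TTCNNGAA or GAANNTTC), chosen after the sequences were seen, matched Hspa1a and Hspa1b at position -104, Jun at position -128, and Hsph1. It matched 15.1% of all windows. The cAMP response element TGACGTCA, the AP-1 site TGANTCA and the CArG box matched no member window, against 1.79%, 7.81% and 1.63% of all windows. These matches describe letters in a short window only.

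Hspa1a (chr17:34969190-34972156) and Hspa1b (chr17:34956436-34959238) are single-exon genes and near-identical copies. Of the stretches of 90 bases in the Hspa1a transcript, 49.3% also occur exactly in Hspa1b. Reads from these stretches fit both copies, and how they were counted is not given in the sources used here. The level of each copy is therefore uncertain, and too low if such reads were left out. The copies were also fitted as 1 feature, which does not bring back reads left out. Exons of Jun (chr4:95049034-95052222), Junb (chr8:84974484-84978718) and Hspa1a overlap an antisense neighbour, Junos, Prdx2 and Gm20481 respectively. Use of strand in counting is not given in the sources used here, and whether reads of such partners entered the counts was not examined.

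Across classes the members did not move as 1 block. Enteroendocrine barcodes, with UMIs pooled over the 6 libraries, held the highest levels of Fos, Fosb, Jun and Egr1. Their Egr1 level was 317 CPM (exact Poisson 95% interval 303 to 331) against 37.7 in enterocytes, 92 in goblet cells and 70.1 in T or NK cells. Myeloid barcodes held the highest Junb level, 807 CPM (745 to 872), and their Fos level, 420.0 CPM (376 to 468), lay within the interval of the enteroendocrine level, 428 CPM (412 to 445). The order of this pair differed by label: the mean over control libraries was 493 CPM in myeloid and 387 CPM in enteroendocrine sums, and over labelled libraries 329 and 508 CPM, with ranges that overlapped between the classes in each label. Tuft, progenitor and fibroblast barcodes were low in Fos, at 28.8 to 39.8 CPM. The pooled Paneth value was 20.3 CPM, but it came from 11 UMIs in 51 barcodes. Its libraries ranged from 11.2 to 256 CPM in control and from 0 to 125 CPM in labelled ones, so this value does not rank the Paneth class. Erythroid barcodes, which are known to make little new RNA, held 37.1 CPM of Fos (32.2 to 42.4), an interval that the progenitor interval (32.4 to 48.4) overlaps.

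The heat shock members had another order. Hspa1a was highest in myeloid (62.7 CPM) and T or NK barcodes (57.3 CPM), whose order does not go beyond the myeloid interval of 46.4 to 83. It was 38.6 CPM in enteroendocrine, 5.61 in enterocyte and 3.98 in goblet barcodes. Hsph1 was highest in progenitors, 42.6 CPM (34.9 to 51.4), and T or NK cells, 36.2 CPM, although T or NK cells had the higher mean in control libraries (38.7 against 33.6 CPM). It was lowest in erythroid, goblet and enterocyte barcodes, at 1.23, 1.31 and 1.76 CPM. These intervals cover counting error only, and classes of under 300 barcodes (enteroendocrine, tuft, Paneth, B or plasma, myeloid, fibroblast, progenitor) are described, with no test but for progenitors.

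**Figure D1:**
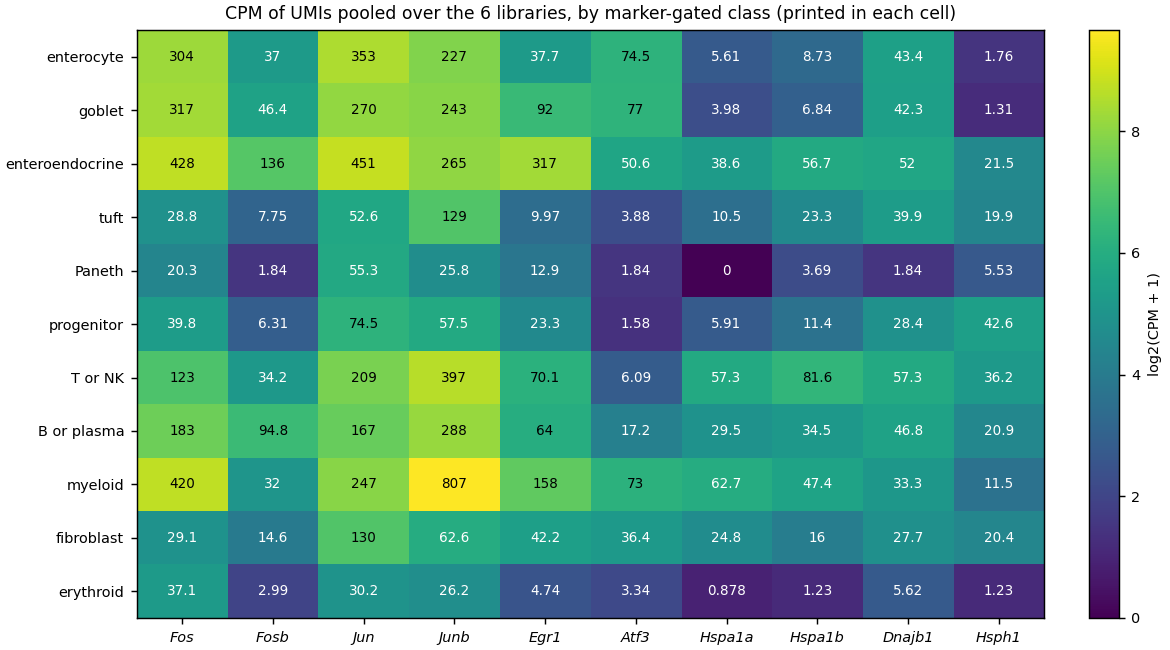
Levels of the 10 members (columns) in 11 marker-gated classes (rows), as CPM of UMIs pooled over the 6 libraries; colour is log2(CPM + 1) and the CPM is printed in each cell. Fos, Fosb, Jun and Egr1 peak in enteroendocrine barcodes, Junb in myeloid barcodes, and Hspa1b in T or NK barcodes.

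T or NK cells were compared with enterocytes of the same libraries. In T or NK sums Hsph1, Hspa1a and Hspa1b were higher, by log2 3.40 ± 0.14 (SE), 2.42 ± 0.32 and 2.30 ± 0.33. Atf3, Fos, Jun and Fosb were lower, by log2 -4.69 ± 0.19, -2.26 ± 0.13, -1.72 ± 0.21 and -1.09 ± 0.20. The heat shock member Dnajb1 was also called lower (-0.58 ± 0.15), and the immediate-early members Junb and Egr1 were not called. Of 10 members, 3 were called higher and 5 lower by edgeR's quasi-likelihood test (adjusted p from 8.91e-09 to 0.00509), where 89.7% of all 12743 genes were called in either direction. This comparison depends on how libraries of such unlike cells are scaled. Without TMM factors, which correct for composition, the median of all genes shifted to 1.00, and Dnajb1, Junb and Egr1 then stood higher in T or NK cells, by log2 0.39, 0.79 and 0.95, and Fosb was no longer called (-0.12, adjusted p = 0.494).

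Epithelial RNA was present in the T or NK sums. The 16 enterocyte markers added up to 4393 to 10168 CPM in control T or NK sums and 5288 to 5690 CPM in those labelled IE-HuR-/-, against 84330.5 to 90210.1 CPM in enterocyte sums. Atf3 stood at 2.56 to 7.58 CPM in T or NK sums and at 52.5 to 108 CPM in enterocyte sums and the part of epithelial RNA in it was not tested. In the other direction, the 17 T or NK markers added up to 46.9 to 119 CPM in enterocyte sums against 71951 to 79372 CPM in T or NK sums.

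Between goblet cells and enterocytes the largest difference among the members was in Egr1, which was higher in goblet sums by log2 1.48 ± 0.07 (adjusted p = 1.77e-10), and higher in goblet than in enterocyte sums of each of the 6 libraries. Fosb was higher by 0.49 ± 0.07. Smaller differences were called for Junb, Atf3 and Fos (0.29, 0.24 and 0.24) and for Jun (-0.21), and 52.8% of all genes were called. The Atf3 call was lost in 10 of 14 alternatives, DESeq2 among them, and that of Jun without control replicate 3 (-0.15) or IE-HuR-/- replicate 1 (-0.21). Without TMM factors only Egr1, Fosb and Jun were called. Goblet sums also held 31274 to 49907 CPM of enterocyte markers.

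Progenitors, gated on proliferation and stem cell markers, were low in immediate-early members. Fos stood at 30.6, 39.6 and 58.5 CPM in control and 33, 28.1 and 32.9 CPM in labelled libraries. Against enterocytes of the same libraries, Fos, Atf3, Fosb, Jun, Junb and Dnajb1 were lower, by log2 -3.79 ± 0.19 for Fos and -1.42 ± 0.19 for Dnajb1. Hsph1 was higher, by 3.78 ± 0.26 (adjusted p = 1.79e-17), with 73.9% of all genes called. Progenitor sums held 14 to 39 barcodes per library, and Hspa1a, Hspa1b and Egr1 were not called there.

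The main question was how the members differ between the labels. In enterocytes, the labelled IE-HuR-/- sums exceeded the control sums in all 10 members, and all 10 were called (edgeR, adjusted p under 0.05). In CPM the labels did not overlap and the labelled libraries were higher in 11.0% of all 20833 genes detected. The calls stand beside 58.3% of the 12306 genes tested that were called in either direction and 29.6% that were called higher. The median log2 fold change was 0.74 over the members and -0.01 over all genes. Without TMM factors the median of all genes was -0.22, the split of calls went from 3645 higher and 3530 lower to 1771 higher and 6171 lower, and 8 of the 10 members were called, Fos and Hsph1 not. The log2 fold changes below use TMM factors and are therefore relative to the bulk of the genes tested. The CPM values are relative to all UMIs of the enterocyte sum. Without TMM factors Egr1 gave log2 1.47 in place of 1.68, and Jun 0.48 in place of 0.69.

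Egr1 rose the most. Its level was 22.2, 19.3 and 23 CPM in the control libraries and 60.2, 60.3 and 57.9 CPM in the labelled ones. The labels did not overlap, and the libraries within a label lay close together. The log2 fold change was 1.68 ± 0.06 (SE, n = 3 against 3, adjusted p = 1.55e-18).

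The inducible Hsp70 pair came next, at low levels. Hspa1a stood at 2.95, 3.27 and 4.24 CPM in control and 8.36, 8.67 and 8.49 CPM in labelled enterocytes, a log2 fold change of 1.51 ± 0.10 (adjusted p = 3.82e-12). Hspa1b stood at 5.18, 5.97 and 5.69 CPM in control and 11.3, 14.2 and 13 CPM in labelled enterocytes (1.40 ± 0.08, adjusted p = 7.61e-14). Each copy was higher in every labelled library than in every control library, and the summed feature gave a like value (1.44 ± 0.07, adjusted p = 1.06e-14). The T or NK markers, which mark cells with far more Hspa1a, summed to 46.9 to 105 CPM in control and 98.5 to 119 CPM in labelled enterocytes. Their part in the result was not tested.

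Atf3, a stress-induced repressor of the ATF family, stood at 57.2, 52.5 and 63.9 CPM in control and 106, 108 and 80.2 CPM in labelled enterocytes (log2 0.97 ± 0.17, adjusted p = 0.00751). Junb, an AP-1 subunit, went from 182, 186 and 195 CPM to 269, 293 and 278 CPM (0.79 ± 0.05, adjusted p = 2.41e-14). Jun went from 309, 292 and 305 CPM to 425, 428 and 414 CPM (0.69 ± 0.04, adjusted p = 1.66e-13). In these 3 genes too, no labelled library fell within the control range.

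Dnajb1 (chr8:83608193-83612653) stood at 35.2, 36.4 and 39.8 CPM in control and 54, 52.7 and 49.6 CPM in labelled enterocytes (log2 0.70 ± 0.05, adjusted p = 1.46e-11). Fosb (chr7:19302696-19310051) went from 31.6, 31 and 35.5 CPM to 48.6, 38.9 and 42.6 CPM (0.62 ± 0.09, adjusted p = 0.000594). Hsph1, at 1.59, 1.7 and 1.47 CPM in control and 1.93, 1.98 and 1.96 CPM in labelled enterocytes, had a log2 fold change of 0.51 ± 0.15 (adjusted p = 0.00632). Fos (chr12:85473890-85477273) moved the least: 305, 283 and 301 CPM against 313, 322 and 311 CPM, which is 1.07-fold in CPM and 0.30 ± 0.05 on the fitted log2 scale (adjusted p = 1.83e-06). Fos and Hsph1 are the members whose call was lost without TMM factors. That of Hsph1 was also lost with doubled marker thresholds, and that of Hspa1b with barcodes thinned to 1000 UMIs.

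**Figure D2:**
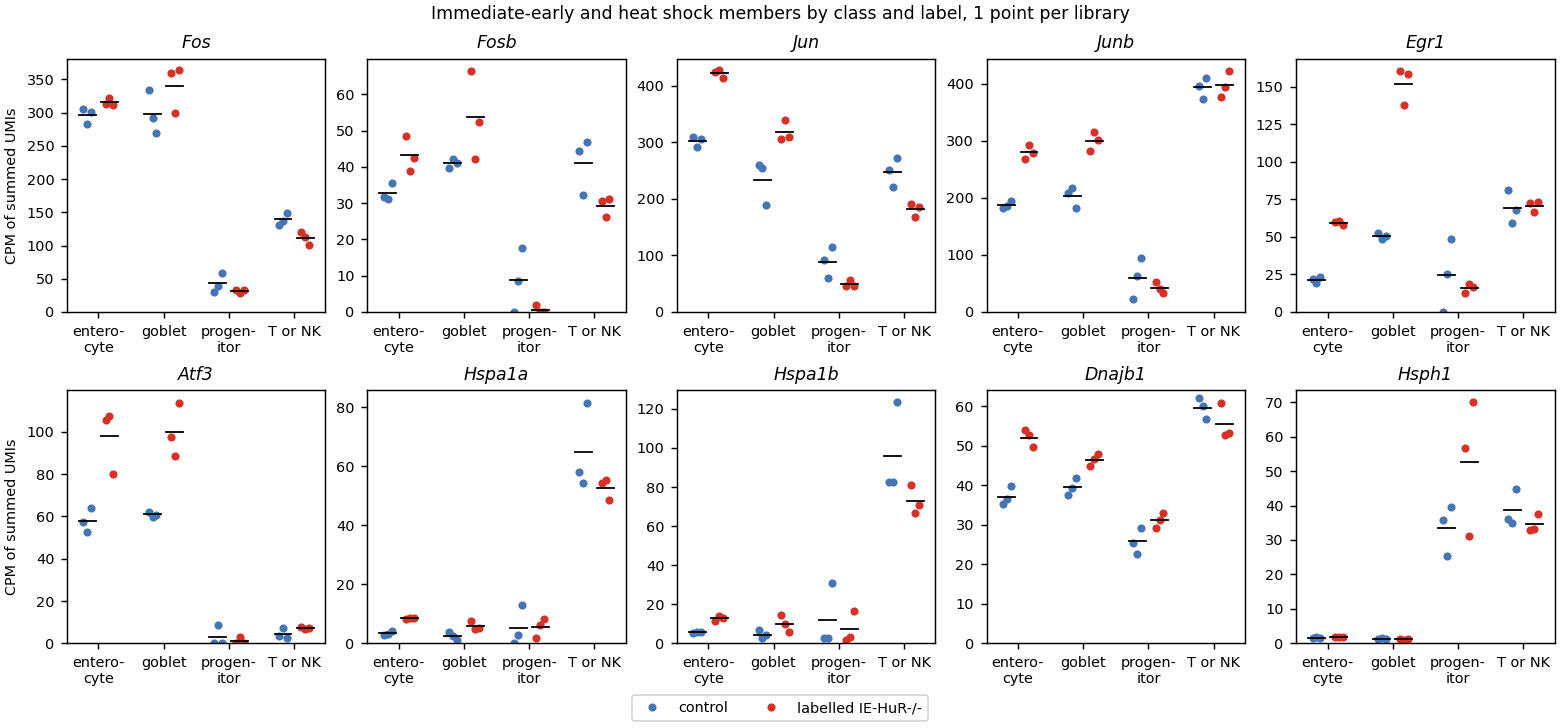
CPM of UMIs summed per library (1 point each, black bar the mean) for each member in enterocyte, goblet, progenitor and T or NK barcodes, control and labelled IE-HuR-/-; y axes start at 0 and differ between panels. In enterocytes each labelled library lies above each control library for all 10 members; in T or NK cells those of Fos, Fosb, Jun and Hspa1b lie below.

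The rise in enterocytes was examined by depth and by position along the villus, with splits chosen after the data had been seen. Enterocytes of labelled libraries held more RNA of the villus-tip genes Ada, Nt5e and Slc28a2, 4502 to 4998 CPM against 2966 to 3665 CPM in control, and had median depths of 16012 to 18512 UMIs against 7581 to 20203. Among barcodes with tip genes at 0.05% of UMIs or more, Egr1 was higher by log2 1.59 ± 0.07, and among those below it by 1.43 ± 0.07. Hspa1a was higher in both, by 1.33 and 1.61. Some differences were smaller in 1 or both parts than over all enterocytes (Jun 0.69, Atf3 0.97, Junb 0.79, Dnajb1 0.70). Jun gave 0.60 in tip barcodes and 0.28 in the others, Atf3 0.75 and 0.58, Junb 0.78 and 0.58, and Dnajb1 0.71 and 0.32. Fosb (0.31 and 0.81), Hspa1b (1.25 and 1.46) and Hsph1 (0.11 and 0.71) were larger in the others. In all, 9 of 10 members were called higher in the tip barcodes, where 26.4% of genes were, and 10 of 10 in the others, where 23.8% were. In tip barcodes Fos stood at 406 to 459.8 CPM in control and 407 to 417 CPM in labelled libraries, so the libraries overlapped there although the fit gave 0.13 ± 0.05 (adjusted p = 0.0496). Hsph1 was not called there (0.11 ± 0.29).

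By depth, Egr1 was higher in barcodes of 1000 to under 4000 UMIs (log2 2.06 ± 0.25), 4000 to under 16000 UMIs (1.67 ± 0.10) and at least 16000 UMIs (1.65 ± 0.06). Of the members tested in these strata, 4 of 6, 8 of 9 and 10 of 10 were called higher, against 7.89%, 20.1% and 27.6% of genes. Fos in the shallowest stratum gave -0.21 ± 0.12 (adjusted p = 0.297). The mitochondrial share of enterocyte UMIs was 15% to 15.6% in control and 14.8% to 16.2% in labelled libraries, which overlap.

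**Figure D3:**
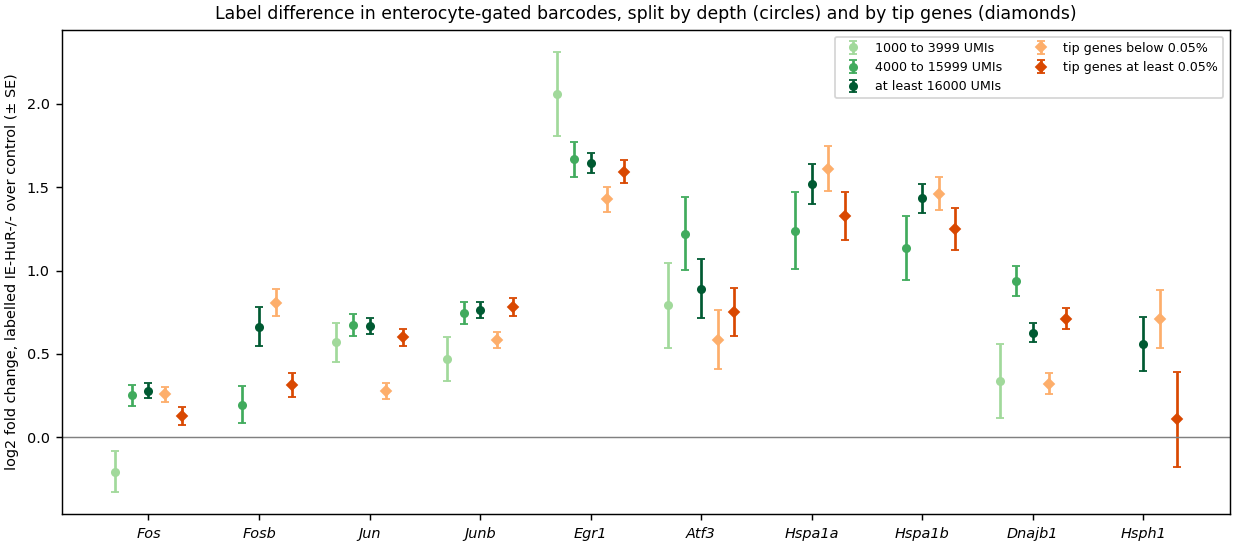
Fitted log2 fold change (± SE) of labelled IE-HuR-/- over control for each member among enterocyte barcodes split by UMIs (circles) or by tip genes (diamonds); a missing point was not tested. Egr1, Hspa1a and Hspa1b stay above 1 in each stratum tested, and Fos lies below 0 in the shallowest barcodes.

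The share of enterocytes with a UMI of a member was compared after thinning each barcode to 1000 UMIs, which left out 438 of 9357 control and 38 of 5269 labelled barcodes. Egr1 was seen in 1.73% to 2.04% of control and 4.79% to 5.21% of labelled enterocytes, Junb in 15.4% to 16.1% and 22.4% to 24.2%, and Jun in 20.9% to 22.8% and 28.4% to 29.7%. In 5 of 10 members (these, Atf3 and Hspa1a) the labelled libraries lay above all controls, which 7.65% of genes did. The exact permutation p was 0.1 for each of them, the smallest that 3 against 3 allows. Fos was seen in 21.2% to 23.8% and 21.9% to 23.4%, with no separation (exact permutation p = 0.6). Hsph1 was seen in 0.104% to 0.238% and 0.0564% to 0.113%, an order opposite to its CPM and too near single UMIs to be read. Erythroid barcodes thinned alike, 1 gauge of free RNA, gave 0% to 1.6% for Egr1 and 1.77% to 7.2% for Fos. Ungated barcodes of under 1000 UMIs held 21.7 to 27 CPM of Egr1 in control and 45.8 to 51.2 CPM in labelled libraries. Atf3, Jun, Junb and Dnajb1 were also higher there without overlap. Fos was lower without overlap (228 to 265 and 201 to 216 CPM), and Fosb, Hspa1a, Hspa1b and Hsph1 overlapped. The share of all genes that separated there was not computed. The part of free RNA in the enterocyte values was not tested. In enterocytes without thinning, 9 of 10 members lay above all controls, as 10.3% of genes did, with Egr1 in 11.2% to 17.2% and 32.8% to 36.1%.

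Within cells, the heat shock members accompanied the immediate-early ones only in part. After thinning, 47.7% to 50.4% of control and 58.7% to 59.1% of labelled enterocytes held a UMI of any immediate-early member, and 3.7% to 4.92% and 5.44% to 6.82% held one of any heat shock member. Heat shock UMIs were seen in 4.96% to 7.27% of enterocytes with an immediate-early UMI and in 2.53% to 6.28% of those without, higher with than without in each of the 6 libraries. In T or NK cells these shares were 18.8% to 26.6% and 14.1% to 18.1%, again higher in each library. The pair Hspa1a and Hspa1b was seen in few cells: 1.58% to 2.97% of enterocytes and 4.27% to 6.53% of T or NK cells carried 50% of its UMIs in each library, and no T or NK library had its UMIs in more than 32.2% of cells. This was not particular to the pair. By the same measure Egr1 was held by 2.1% to 5.77% of enterocytes and 1.73% to 2.25% of T or NK cells. In enterocytes, Fos and Jun, with more UMIs, were held by 9.17% to 12.9% and 8.93% to 12.5%. In T or NK cells they were held by 5.56% to 9.51% and 8.21% to 10.0%. The measure is limited where UMIs are few, and the share that counting alone gives was not computed. These barcodes were not thinned.

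Goblet cells, which are epithelial as well, showed the same direction. All 9 members tested were called higher in labelled libraries, against 27.6% of 9044 genes called and 15.2% called higher; Hsph1 was too low to be tested. Without TMM factors 7 of 9 were called, Fos and Dnajb1 not (adjusted p = 0.162 and 0.107), and the split of all calls went from 1375 higher and 1118 lower to 750 higher and 2347 lower. The call of Fos was also lost without control replicate 3, and that of Hspa1a without IE-HuR-/- replicate 1. Egr1 stood at 52.6, 48.3 and 50.3 CPM in control and 160.3, 138 and 158 CPM in labelled goblet sums, without overlap (log2 1.79 ± 0.10, adjusted p = 2.92e-11). Atf3 stood at 62.3, 59.9 and 60.9 CPM and 97.4, 88.8 and 114 CPM (0.91 ± 0.11, adjusted p = 1.89e-06). Fos, Fosb and Hspa1b overlapped between the labels in CPM, and 6 of 10 members were higher without overlap, as 7.93% of genes were. Enterocyte markers were lower in labelled goblet sums, 31274 to 41767 CPM against 47369 to 49907 CPM. The part of enterocyte RNA in the goblet values was not tested.

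In T or NK cells, which are outside the epithelial lineage, no member was called higher with all 6 libraries. Jun stood at 251, 221 and 272 CPM in control and 190.2, 169 and 186 CPM in labelled libraries, a log2 fold change of -0.47 ± 0.07 (adjusted p = 0.000612). Fosb went from 44.4, 32.3 and 46.8 CPM to 30.6, 26.3 and 31 CPM (-0.51 ± 0.13, adjusted p = 0.0301), and Fos from 132, 138 and 149.6 CPM to 119.9, 112 and 101 CPM (-0.36 ± 0.08, adjusted p = 0.0135). These 3 were called lower and 0 higher, where 3.38% of 10997 genes were called and 1.45% were lower. The labels did not overlap in these 3 genes or in Hspa1b, at 82.5, 82.3 and 123 CPM in control and 80.8, 66.6 and 71 CPM in labelled libraries (log2 -0.42 ± 0.15, adjusted p = 0.233). These 4 members were lower without overlap, as 6.55% of genes were. Small classes that were not tested varied. In myeloid sums, also outside the epithelium, Egr1 stood at 33.5 to 119 CPM in control and 154 to 382 CPM in labelled libraries. Fos overlapped there (324 to 579 and 202 to 499 CPM). In enteroendocrine sums the mean of Egr1 was 234 CPM in control and 455 CPM in labelled libraries, and that of Hspa1a 45.7 and 22.5 CPM. In tuft sums, also epithelial, the mean of Egr1 was 9.87 CPM in control and 9.03 CPM in labelled libraries, from 18 UMIs in all.

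The other members of T or NK cells were not called. Egr1 stood at 59.4 to 81.1 CPM in control and 66.4 to 73.1 CPM in labelled libraries (log2 -0.01 ± 0.10), and Junb at 374 to 411 CPM and 377 to 424 CPM (-0.01 ± 0.06). Hspa1a was 58.2, 54.6 and 81.7 CPM in control and 54.3, 55.4 and 48.6 CPM in labelled libraries (-0.31 ± 0.12, adjusted p = 0.234), with control replicate 3 apart from the rest. Atf3 was 3.62, 7.48 and 2.56 CPM in control and 7.58, 6.62 and 7.33 CPM in labelled libraries, which overlapped (0.57 ± 0.32, adjusted p = 0.401). After thinning to 1000 UMIs Atf3 was seen in 0% to 0.522% of control and 0.737% to 1.02% of labelled T or NK cells (exact permutation p = 0.1), beside 0% to 0.885% in erythroid barcodes. Goblet markers in the T or NK sums were 1787 to 2145 CPM in control and 836 to 1075 CPM in labelled libraries. Goblet sums hold more Fos than T or NK sums, and the part of this in the lower Fos, Fosb and Jun was not tested.

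The calls in T or NK cells were fewer under several settings. DESeq2 called 1 of 10 members in place of 3, and 2.36% of all genes. Leaving out 1 library at a time gave 1 to 4 members called, where 1.35% to 9.93% of all genes were. The fourth, without control replicate 2, was Atf3, called higher (log2 1.16, adjusted p = 0.0424), and 1 member was left without IE-HuR-/- replicate 2 or without IE-HuR-/- replicate 3. Jun was called in each of these fits. Among T or NK barcodes with a UMI of Trdc, the gamma-delta receptor constant chain, 2 members were called lower (0.645% of genes were), and among those without, 1 (2.47% of genes).

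**Figure D4:**
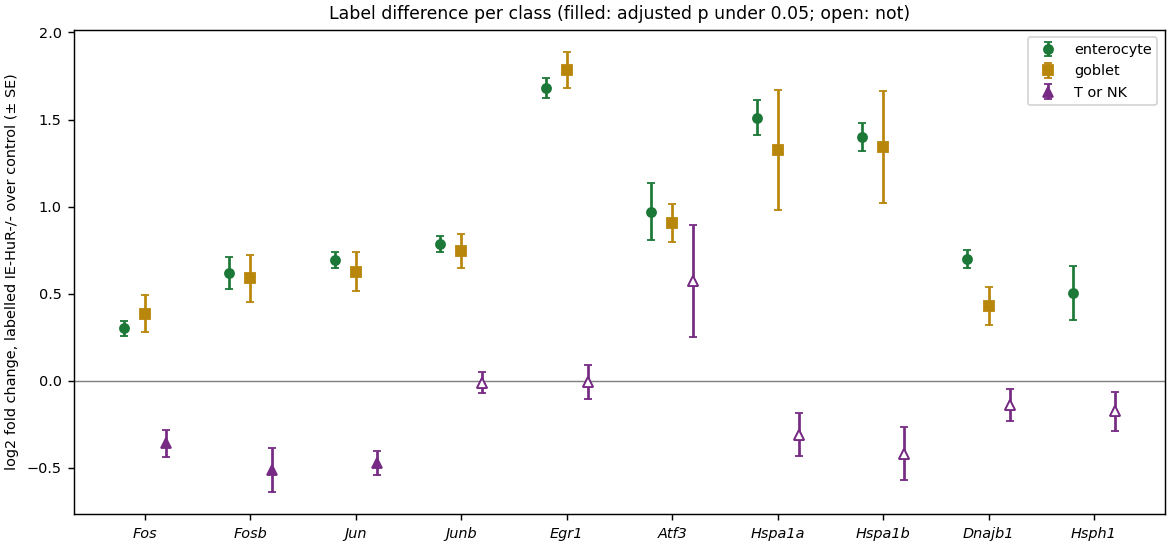
Fitted log2 fold change (± SE, n = 3 against 3) of labelled IE-HuR-/- over control for each member in enterocyte (circles), goblet (squares) and T or NK sums (triangles); filled points have an adjusted p under 0.05. Enterocyte and goblet points are above 0 throughout, while in T or NK cells Atf3 alone is above 0 and is not called.

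The difference between the classes was tested directly, as the class by label term in a fit with library as a block. For 9 of 10 members the label difference was lower in T or NK cells than in enterocytes, whereas 14.2% of 13812 genes differed and 6.59% were lower. The gap was log2 -1.80 ± 0.11 for Hspa1a (adjusted p = 5.66e-06), -1.79 ± 0.16 for Hspa1b, -1.68 ± 0.11 for Egr1 (adjusted p = 1.22e-05) and -1.15 ± 0.12 for Jun. It was smallest among those called in Fos (-0.65 ± 0.12, adjusted p = 0.00604) and Hsph1 (-0.67 ± 0.16, adjusted p = 0.0223). Atf3 did not pass (-0.40 ± 0.38, adjusted p = 0.53). Without TMM factors 8 of 10 were called, Hsph1 not. The call of Hsph1 was also lost without control replicate 1 or any 1 of the IE-HuR-/- replicates.

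Progenitors are epithelial as well, but their sums gave no called member among the 5 tested by edgeR. The 3 immediate-early members tested were fitted below 0, Fos by log2 -0.52 ± 0.35 and Junb by -0.54 ± 0.40, beside Jun. Dnajb1 (0.20 ± 0.38) and Hsph1 (0.58 ± 0.35) were fitted above 0. Jun stood at 91.8, 59.4 and 114 CPM in control and 45.8, 56.3 and 45.2 CPM in labelled libraries (log2 -0.91 ± 0.30, edgeR adjusted p = 0.45), and 1 of 5 was under 0.05 before adjustment. DESeq2 called 0 of 5 as well. In simulated counts of this depth 200 genes were changed by 1 on the log2 scale. Of these, 72 passed the count filter and 11 were recovered, so a change of that size could be missed. Only 0.227% of all genes were called.

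Companion genes of the same pathways, listed by symbol, were read from the same enterocyte fit. Of 36 other immediate-early genes, 31 were tested, 24 were called higher and 4 lower, with a median log2 fold change of 0.60 beside -0.01 over all genes. Of all genes tested, 29.6% were called higher and 28.7% lower. By the fixed rule of size, Dusp1, a MAP kinase phosphatase, went from 9.93, 9.6 and 10.3 CPM to 22.1, 21.1 and 19.5 CPM (1.28 ± 0.07). Dusp6, an ERK phosphatase, went from 85.4, 87.5 and 92.8 CPM to 177, 185 and 171 CPM (1.22 ± 0.05). Srf, which encodes serum response factor, and Ppp1r15a, a phosphatase subunit acting on eIF2 alpha, had log2 fold changes of 1.26 ± 0.07 and 1.02 ± 0.08. All 4 had adjusted p of 6.66e-12 or lower.

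The other heat shock and chaperone genes moved less. Of 29 listed, 26 were tested, 10 were called higher, 4 lower and 12 not called, with a median of 0.07. Of all genes tested, 29.6% were called higher and 28.7% lower, so the calls alone do not set this list apart. Hsp90aa1, the inducible Hsp90, went from 87.4, 85.7 and 89.6 CPM to 110.2, 112 and 116 CPM (0.57 ± 0.04). Hspa4 was higher by 0.31 ± 0.04 and Hspa4l, a relative of Hsph1, lower by -0.26 ± 0.06. Of 16 endoplasmic reticulum stress genes, 15 were tested, 9 were called higher and 3 lower, against the same shares of all genes, with a median of 0.18. Atf4 was higher by 0.65 ± 0.05, Creld2 by 0.56 ± 0.07 and Edem1 by 0.42 ± 0.04, whereas Pdia4, a disulfide isomerase, was lower by -0.43 ± 0.08.

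In T or NK cells 1 of 33 tested immediate-early companions was called, Gadd45b, at 25.8, 22.7 and 27.2 CPM in control and 35.1, 36.7 and 49.6 CPM in labelled libraries (log2 0.66 ± 0.14, adjusted p = 0.0105). Of 25 tested heat shock companions 0 were called by edgeR and 0 by DESeq2, and 4 had an unadjusted edgeR p under 0.05. Of 13 tested endoplasmic reticulum stress genes 1 was, Atf4 (0.46 ± 0.08, adjusted p = 0.00256). The medians of these lists were 0.13, 0.01 and 0.08. Of all genes tested in T or NK cells, 3.38% were called.

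The genes with patterns most like Fos over 52 class sums of 11 classes were Zfp36 (Pearson r = 0.874), Jun (0.863), Fosb (0.846), Klf6 (0.829) and Prkcd (0.828), among 8397 genes. Those most like Hspa1a were Mindy2 (0.786), Zswim6 (0.778), Nin (0.776), Vps13c (0.776) and Hspa1b (0.773). The points share libraries and differ in depth, and r is given as a description.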

How the data were processed

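The deposited files hold raw UMI counts per gene and barcode, which the authors made with Cell Ranger (version 6.1.2 in the file headers; mm10 per the submitters' processing notes). The methods name another version, a human reference and a 3′ kit, and the labels a 5′ kit, so these points are open. UMIs collapse amplification copies. Barcodes were gated on marker genes (thresholds set after seeing the data), summed per library and class, and tested on those counts with edgeR 4.0.16 (TMM, filterByExpr with a minimum count of 10, quasi-likelihood) across all genes, with Benjamini-Hochberg adjustment, a threshold of 0.05 and both directions tested. The SE given with edgeR values was derived, as the absolute log2 fold change over the square root of the quasi-likelihood F statistic. DESeq2 1.42.0 was an alternative. Class comparisons kept the library as a block. Shares were tested by exact permutation. No doublet caller was run: 61 barcodes that passed several gates were left out, and an alternative left out the 10% deepest. Doublets of an enterocyte and a goblet cell could not pass both gates. The enterocyte gate asked for under 2% goblet markers and the goblet gate for at least 5%, with no limit on enterocyte markers. In simulated counts 200 genes were changed by 1 on the log2 scale, of which 123 passed the count filter in enterocytes and 123 in T or NK cells. Of these, 114 were recovered in enterocytes, where 12311 genes were tested, and 109 in T or NK cells. The labels do not say that replicates are separate animals, while a figure legend of the study gives its single-cell values as means from 3 animals. The p-values measure the spread between these libraries. Same-label libraries differed beyond sampling noise. The numbers did not pair the samples (correlations of same-numbered deviations -0.26 to 0.02). Members, lists and the gene rule (members, Elavl1, and per list the 4 largest called changes with separated libraries and a mean of at least 10 CPM) were chosen with earlier results of these data known. A gene that the rule names is not reported here. Sequences are from RefSeq and coordinates from GENCODE on mm10. Analyses ran in R 4.3.3 and Python 3.11.15.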

Additional observations from a re-analysis of the deposited data

Results flagged for a closer look

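The label difference of 9 members differed between T or NK cells and enterocytes by the class by label term of edgeR's quasi-likelihood fit (adjusted p under 0.05; higher or lower in T or NK minus enterocyte, log2). The values were -1.80 for Hspa1a, -1.79 for Hspa1b, -1.68 for Egr1, -1.15 for Jun, -1.11 for Fosb, -0.83 for Dnajb1, -0.79 for Junb, -0.67 for Hsph1 and -0.65 for Fos. Of all 13812 genes tested, 14.2% were called by this term and 6.59% were lower. For Jun, Fosb and Fos the levels of all labelled libraries lay above the controls in enterocytes and below them in T or NK cells. Taken singly, 11.0% of genes lay above without overlap in enterocytes and 6.55% below in T or NK cells. The share of all genes with both was not computed. With 3 libraries a group, no test for an outlying value was run.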

How the results depend on the processing

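Of the values computed for single members under other settings, 1033 kept direction and side of the threshold, 61 lost a call, 12 gained one and 32 changed sign; of the counts, 218 stayed within 1.5 times, 28 fell and 8 rose beyond it. The causes were not tested, except that thinning removes counts. Progenitor sums held 14 to 39 barcodes per library, which limits their counts.

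With barcodes thinned to 1000 UMIs, genes called numbered 2120 in enterocytes, 256 in goblet, 188 in T or NK and 0 in progenitor sums, 7422, 2308 and 2712 in T or NK, goblet and progenitor minus enterocyte, and 319 in the class by label term. Members called were then 8 of 9 tested in enterocytes (Hspa1b not), 2 in goblet, 0 in T or NK and 2 in goblet minus enterocyte. Values that changed sign when thinned were Junb 0.0688 in T or NK, Junb 0.22 and Egr1 0.29 in T or NK minus enterocyte, and Atf3 0.0781 and Hsph1 0.76 in the class by label term.

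Without TMM factors the sign changed for Elavl1 in enterocytes (-0.000629), Junb (0.018) and Egr1 (0.0207) in T or NK, Junb (0.79), Egr1 (0.95) and Dnajb1 (0.39) in T or NK minus enterocyte, Dnajb1 (-0.0331) in goblet minus enterocyte, and Hspa1a (0.0163) and Hspa1b (0.31) in progenitor minus enterocyte. In goblet minus enterocyte 3 members were then called.

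In T or NK cells DESeq2 called 1 member (260 genes), no low-count filter 5 (831 genes) and doubled marker thresholds 5 (375 genes). Barcodes without Trdc gave 1 member called, and Junb (0.20), Egr1 (0.28) and Hsph1 (0.0651) changed sign there. Junb was 0.025 without the 10% deepest barcodes. Progenitor fits called 43 genes without a filter, 18 with at most 25% mitochondrial UMIs and 5 without the deepest barcodes. There, doubled thresholds gave Junb 0.19 and Dnajb1 -0.15. In progenitor minus enterocyte Hspa1b was 0.37 with doubled thresholds and 0.19 without the deepest barcodes. Among enterocytes of 1000 to under 4000 UMIs 4 members were called and Fos was -0.21. Without thinning 9 members separated in share.

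Leaving out 1 library at a time gave 10 of 10 members called in enterocytes each time, 8 to 9 in goblet, 1 to 4 in T or NK and 8 to 9 in the class by label term. Of all genes, 51.3% to 55.5% were called in these enterocyte fits and 20.9% to 25.3% in the goblet fits. Genes called ranged from 151 to 1115 in T or NK, where the highest count came without control replicate 3, from 4 to 14 in progenitors and from 790 to 3149 in the class by label term. Values whose sign depended on the library left out were Junb (-0.0477 to 0.0314) and Egr1 (-0.103 to 0.107) in T or NK, Egr1 in T or NK minus enterocyte (-0.21 to 0.17, above 0 when any labelled library was left out) and Atf3 in the class by label term (-0.74 to 0.30, above 0 only without control replicate 2).

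With a replicate block, 9 members were called in enterocytes (Atf3 not, 0.96, adjusted p = 0.0655), 9 in goblet, 3 in T or NK and 0 in progenitors, and Egr1 in T or NK was 0.0018. Of all genes, 57.9%, 27.9%, 2.80% and 0.165% were called in these classes, in the same order.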
